A study of Mus musculus with 8 samples.

Results

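BM-derived hepatocytes sorted 1 month after transplantation (arrays B1 and B2) were compared with Lin- BM cells (L3 and L4), the kind of cell that had been transplanted. The samples were chosen by their titles and make up 4 of the 8 arrays of the series, 2 in each group. All 4 lay on the same slide, of array design 026986. The comparison addresses which functions of the marrow cell and of the hepatocyte were present in the sorted cells, and it is described here across all genes of the design.

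Lin- cells came from the bone marrow of female eGFP mice (C57Bl6/J-Tg(UBCGFP)30Scha/J), a line in which the ubiquitin C promoter drives eGFP in most tissues. Magnetic beads had removed cells with B cell antigens such as CD45R, the T cell antigen CD5, the myeloid antigens CD11b, Ly-6G/C (Gr-1) and 7-4, or the erythroid antigen Ter119, which leaves a mixed population rich in progenitors. Recipients were male hemophilia A mice, which carry the F8tm1Kaz allele of the factor VIII gene on a mixed background, that had received acetaminophen into the peritoneum and then the Lin- eGFP cells through the tail vein. Donors and recipients were young adults, some weeks old. From their livers the BM-derived hepatocytes were obtained by collagenase perfusion, a slow spin that pellets hepatocytes, and sorting for eGFP. Each experiment pooled cells of several mice, so an array is a pool and not an animal. The p-values below measure only the spread between these arrays.

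Hepatocytes are the main cells of the liver. They secrete most plasma proteins, dispose of nitrogen as urea, release glucose, make bile acids and modify drugs, under the control of a small group of transcription factors that includes HNF4A and the FOXA proteins. Lin- BM cells hold dividing precursors of blood. The paper describes a CD45-positive hematopoietic and a CD45-negative mesenchymal fraction among them. The blood precursors carry cytokine receptors such as KIT, depend on factors such as MYB and GATA2, and, where committed to the myeloid line, store proteases in granules.

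Levels are given as the log2 of the background-subtracted signal minus the upper quartile (75th percentile) of the same array, so that 0 is the upper quartile. A difference is the mean of B1 and B2 minus the mean of L3 and L4, with its standard error (SE, n = 2 and 2). A gene was called at a Benjamini-Hochberg adjusted p under 0.05 in limma and a log2 difference beyond 0.6 in size. An exact permutation test of 2 arrays against 2 cannot give a two-sided p below 0.33, and none was used. Where no array of a group was well above background, the change is a lower bound ("at least N-fold") against the background limit of those arrays.

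Of 28522 genes tested, 8225 (28.8%) were called higher at 1 month and 7552 (26.5%) lower. Among the 16576 genes found in RefSeq, 27.5% were higher and 30.5% lower, and the lists below are to be read against these shares. The median difference was 0.07 over all genes and the median absolute difference was 1.20. Higher calls made up 52.1% of all calls, 62.8% after another background correction (normexp) and 71.9% without the filter on dim probes. Replicates correlated at 0.977 (L3 and L4) and 0.981 (B1 and B2) across genes. The 1-month arrays were dimmer, with an upper quartile of 75.5 and 89.5 against 193 and 177, and 47.7% and 51.5% of their spots were well above background against 58.6% and 56.9%. The limit of detection therefore sat higher relative to the upper quartile at 1 month (-3.64 and -3.41) than in Lin- BM cells (-4.44 and -4.55). In bulk RNA, fewer cells of a type and less RNA per cell cannot be told apart.

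Genes of the sex chromosomes did not all follow the female donors given in the methods. Xist, the RNA that coats the inactive X chromosome of female cells, was at 3.81 and 2.74 in Lin- BM cells and at -5.47 and -5.66 at 1 month, where neither array was well above background. It was at least 111-fold lower (adjusted p = 0.000275). Of 8 genes of the Y chromosome, 4 could be tested and none was called. Ddx3y was at 2.18 and 1.44 in Lin- BM cells and 2.75 and 2.72 at 1 month (adjusted p = 0.0736), and Eif2s3y at 3.07 and 2.92 against 3.44 and 3.35 (adjusted p = 0.239). Signal of these 2 genes was thus well above background on all 4 arrays, in cells of female donors as in cells sorted from male livers. Kdm5d differed by -0.62 and Uty by 0.17, and Uty, seen on 1 of the 2 1-month arrays, changed sign under quantile normalization. Both 1-month arrays lacked Xist signal, so no result could be given without the arrays concerned. The part of the recipients' own cells in the 1-month RNA was not tested.

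Immediate-early genes set the 1-month arrays apart from each other. Egr1 was at 6.96 on B1 and 0.52 on B2, Fos at 4.65 and -1.97, and Atf3 at 4.08 and -2.24 on the same arrays. The Lin- BM arrays lay between these values for Egr1 and Atf3 and were at 5.52 and 3.74 for Fos, and none of the 3 genes was called. Such genes rise when cells are handled or dissociated. Of 19 genes of the dissociation and stress list, 0 were called higher and 2 lower (Nr4a1, -3.71, and Myc, -3.40), with a median of -0.70. The summed signal of the list was 1001 and 596 in Lin- BM cells and 974 and 229 at 1 month. Without B1, 0 members were higher and 9 lower, and without B2, 4 were higher and 2 lower.

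Most lists fell into 3 sets. Those of secreted and metabolic liver functions were higher with medians of several log2 units, those of dividing and blood cells were lower, and several of general cell machinery had medians within 1 log2 unit of 0. Ribosome biogenesis (-1.77) and the spliceosome (-1.27) lay lower. For comparison, 24 housekeeping genes had a median of 0.59, with 8 (33.3%) called higher and 4 lower.

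**Figure D1:**
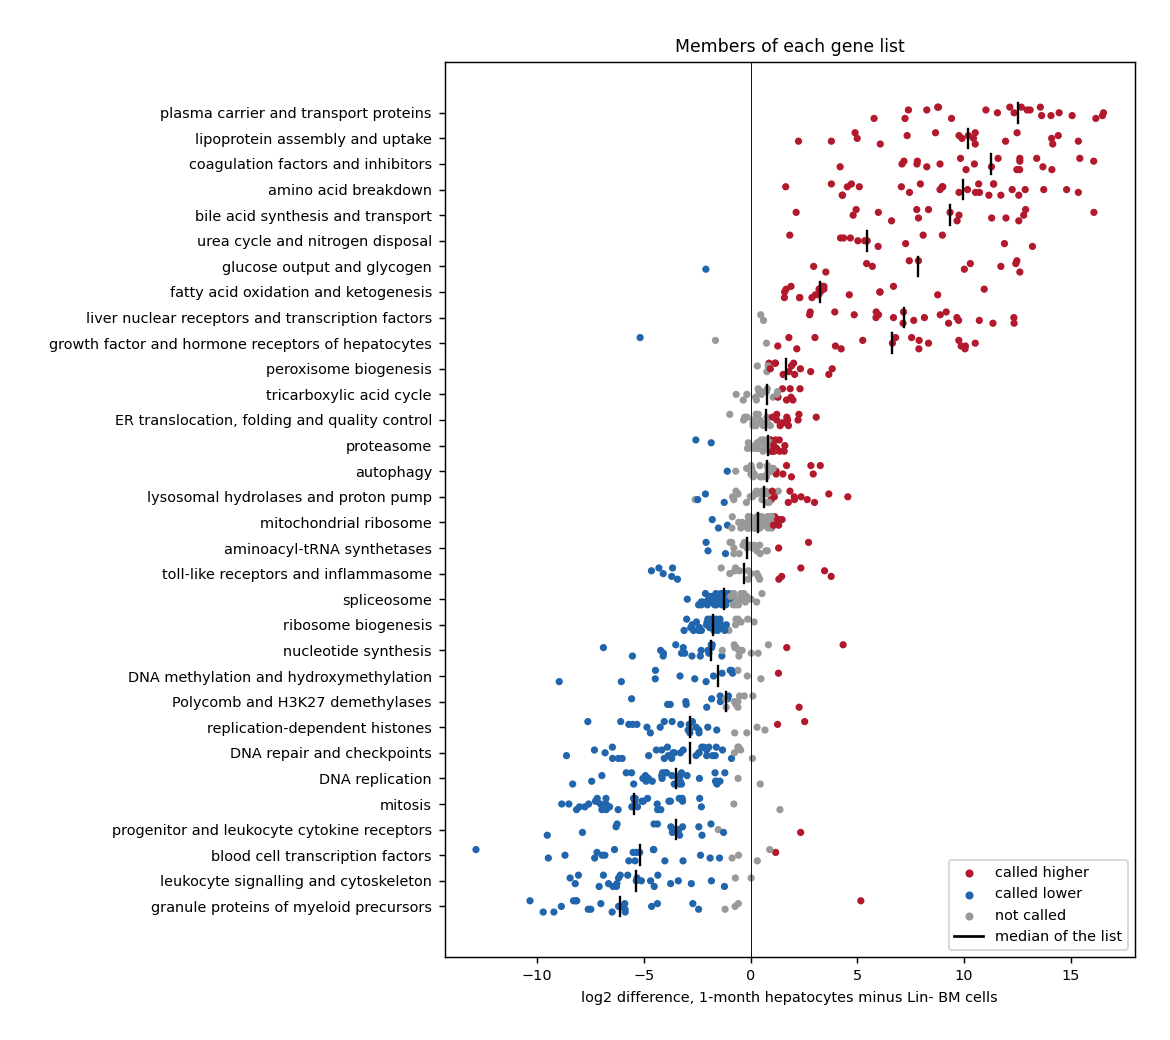
Log2 difference (1 month minus Lin- BM cells, horizontal axis) of every member tested, by gene list, with the list's median as a black bar, called members in red (higher) or blue (lower) and the others in grey. The medians run from 12.51 for plasma carrier proteins to -6.10 for granule proteins, with the proteasome at 0.83 and the mitochondrial ribosome at 0.35. Members near background are included: 12 of 22 carriers were well above it on no Lin- array and 11 of 24 granule proteins on no 1-month array.

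The secreted proteins of the liver were among the largest gains. All 22 plasma carrier and transport proteins were called higher, with a median of 12.51 against 0.07 for all genes. Of the 22, 12 were well above background on no Lin- array, so the median is not a measured size. For Alb, the difference of 16.53 ran from 11.17 to 16.61 over the alternative settings. Alb, which encodes serum albumin, was at -6.67 and -6.64 in Lin- BM cells and at 9.95 and 9.81 at 1 month. The groups lay far apart, and neither Lin- array was well above background for Alb, so it was at least 21241-fold higher (adjusted p = 6.06e-05). Ambp, the precursor of alpha-1-microglobulin, was at -6.68 and -6.25 against 9.99 and 10.03, at least 23317-fold higher, and Apoh, a phospholipid-binding plasma protein, was at least 16620-fold higher. Some carriers were already measurable in marrow: Hp, which binds free hemoglobin, was at 4.0 and 3.57 and rose to 10.01 and 9.13 (difference 5.78, SE 0.40, adjusted p = 0.000682), and Trf, the iron carrier transferrin, rose by 8.76 (SE 0.39).

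All 21 coagulation factors and inhibitors were higher (median 11.28), 8 of them well above background on no Lin- array. The 3 fibrinogen chains lie side by side on chromosome 3. Of these, Fgg was at least 25453-fold higher, Fgb at least 25284-fold and Fga at least 1475-fold. Fgb was at -5.90 and -4.67 in Lin- BM cells and at 10.16 and 10.10 at 1 month. Among the inhibitors of clotting, Serpinc1 (antithrombin) was at -5.25 and -4.28 against 8.91 and 8.94, and Serpind1 (heparin cofactor) was at least 4076-fold higher. In marrow the Serpinc1 probe shown stayed near background and the other probe of the gene did not, so the size of that rise is uncertain. The prothrombin gene F2 was uneven in marrow, at -6.02 and -2.69, with 1 array well above background, and even at 1 month, at 9.08 and 9.02 (difference 13.40, SE 1.09, adjusted p = 0.00103).

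The upstream sequences of a secreted protein gene of each list are shown because the letters GTTAAT, the core of a site common in liver promoters, lie in them, while the genes themselves are among the largest gains. Each is the 150 bases before the start of the gene in RefSeq (GRCm38.p6), written 5′ to 3′ on the strand of the gene, at chr5:90460720-90460869 (plus strand) for Alb and chr3:83049864-83050013 (minus strand) for Fgb, and capitals mark the core GTTAAT on either strand.
Alb: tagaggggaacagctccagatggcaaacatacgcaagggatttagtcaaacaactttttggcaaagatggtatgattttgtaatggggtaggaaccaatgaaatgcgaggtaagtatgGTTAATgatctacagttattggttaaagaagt
Fgb: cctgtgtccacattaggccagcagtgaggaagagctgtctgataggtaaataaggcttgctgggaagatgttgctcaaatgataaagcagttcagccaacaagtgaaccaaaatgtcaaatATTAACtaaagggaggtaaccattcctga
Over the 250 bases upstream, read on both strands, GTTAAT occurred in 7 of the 17 plasma carrier genes with a promoter in the table (41.2%) and in 5 of 18 coagulation genes (27.8%), against 7.5% of 27025 genes. Other raised liver lists had lower shares: 2 of 13 lipoprotein genes (15.4%), 2 of 23 amino acid breakdown genes (8.7%) and 0 of 7 major urinary protein genes. The letters TATAAA were in 5 of the 17 carrier genes (29.4%), 1 of the 18 coagulation genes (5.6%) and 14.3% of all genes. Both printed genes were chosen after their upstream sequence had been seen, and a match describes letters only.

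All 19 genes of lipoprotein assembly and uptake were higher (median 10.20). Apob, the structural protein of very low density lipoprotein, was at -5.00 and -5.48 against 7.32 and 7.15, at least 3403-fold higher, with all 5 of its probes moving the same way. Apoa1, the core of high density lipoprotein, was at least 5470-fold higher and Apoc3, which slows lipoprotein clearance, at least 11233-fold. Apoe, which macrophages make as well, was well above background in marrow at 5.53 and 5.52 and rose to 10.40 and 10.42 (difference 4.89, SE 0.25, adjusted p = 0.000313). Apoa4 differed between the 1-month arrays, at 7.39 on B1 and 4.49 on B2, while Apoa1 and Apoc3 beside it on chromosome 9 did not separate them by more than 0.4.

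Genes that lie together mostly moved together, with exceptions. In the albumin cluster of chromosome 5, Alb, Afm and Gc were at least 21241-fold, 4529-fold and 8867-fold higher. Afp, the fetal member of the same cluster, was at 2.34 and 1.09 in Lin- BM cells and 2.52 and 3.17 at 1 month and was not called (difference 1.13, SE 0.52, adjusted p = 0.119). In the platelet chemokine cluster, also on chromosome 5, Pf4 fell by 7.71 and Ppbp was at least 63.1-fold lower, while Cxcl1 was at least 93.4-fold higher, at 5.39 on B1 but -1.3 on B2 (adjusted p = 0.0312). On the same chromosome, Kit and Kdr, receptor genes of blood precursors and endothelium, moved in opposite directions (-4.37 and 5.53), and Pdgfra beside them, well above background on 1 of the 2 1-month arrays, was not called. In the S100 cluster, S100a8, S100a9, S100a4, S100a6 and S100a11 were lower, while S100a1, S100a3 and S100a16 were higher.

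**Figure D2:**
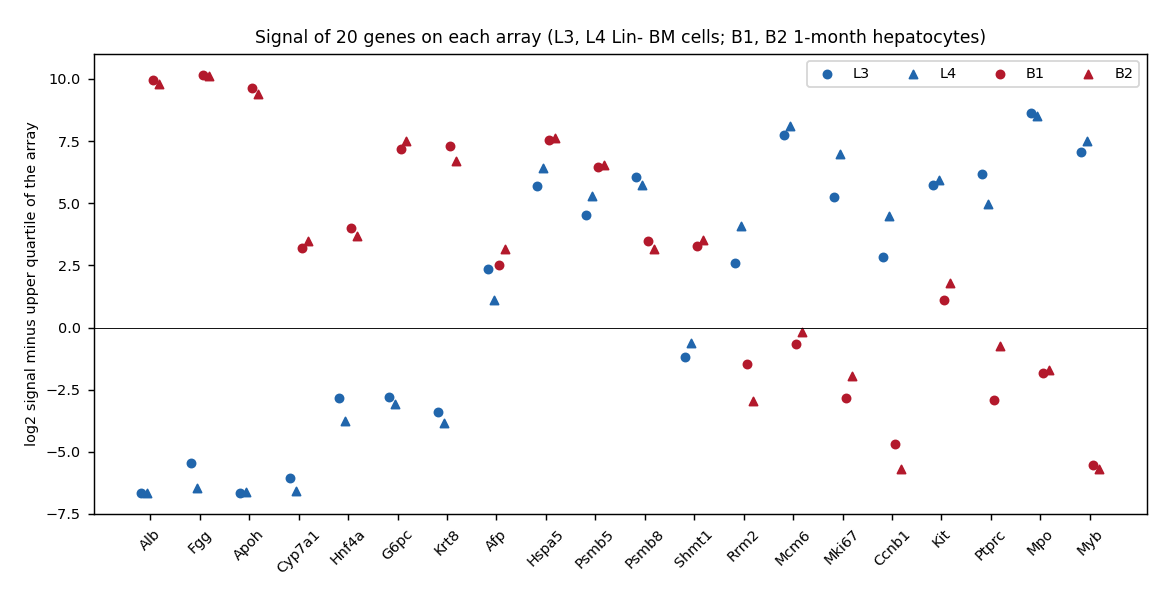
Log2 signal (vertical axis, 0 = upper quartile of the array) of 20 genes on each of the 4 arrays, with Lin- BM cells in blue and 1-month hepatocytes in red. Replicates lie close together for most genes, Alb sits near 10 at 1 month and below -6 in Lin- BM cells, and the Afp points of the groups lie close to each other.

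The machinery that folds and exports proteins had a smaller median than the secreted proteins. Of 30 genes of the endoplasmic reticulum (ER) list, 11 were higher (36.7%, against 28.8% of all genes) and 0 lower, with a median of 0.73. Hspa5, the main ER chaperone, was at 5.69 and 6.43 in Lin- BM cells and 7.53 and 7.61 at 1 month (difference 1.51, SE 0.34, adjusted p = 0.0187). Ero1b, an oxidase that feeds disulfide formation, rose by 3.07, P4hb, a disulfide isomerase, by 2.26 and Pdia4, another isomerase, by 2.22. The count fell with any 1 array left out, most without B1 or B2. Such fits leave 1 array in a group, which makes small differences harder to call.

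Nitrogen and amino acid metabolism followed the secreted proteins. All 13 urea cycle and nitrogen disposal genes were higher (median 5.46) and all 28 genes of amino acid breakdown (median 9.96). Cps1, which starts the urea cycle in mitochondria, was at -4.96 and -6.15 against 5.90 and 6.78, at least 1825-fold higher, and Arg1, which releases urea, rose from -4.67 and -3.82 to 4.74 and 4.72, with 1 of the 2 Lin- arrays well above background. Agxt, which disposes of glyoxylate, was at -6.74 and -5.37 in Lin- BM cells and 8.67 and 8.81 at 1 month, at least 9650-fold higher. Hpd, which acts in tyrosine breakdown, was at least 3237-fold higher and Bhmt, which remethylates homocysteine, at least 1959-fold. Phgdh, the entry to serine synthesis, went the other way, from 6.08 and 6.31 to -4.05 and -4.04, at least 842-fold lower.

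Of 13 genes of glucose output and glycogen, 12 were higher (median 7.86). Pck1, the committed enzyme of gluconeogenesis, was at -3.47 and -3.43 against 9.16 and 8.89 (difference 12.47, SE 0.27, adjusted p = 6.27e-05), and Slc2a2, the glucose transporter of hepatocytes, was at least 1319-fold higher. Gyg, which primes glycogen chains, was the exception, at 5.59 and 5.67 in Lin- BM cells and 3.63 and 3.44 at 1 month (difference -2.10, SE 0.26).

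For enzymes with a liver form and a form of other tissues, the pairs often parted. Of 14 pairs with both forms measured, 7 had the liver form called higher and the other lower. Against the rise of Pck1 by 12.47, Pck2, its mitochondrial form, fell from 3.82 and 5.15 to 0.64 and 0.50 (difference -3.91, SE 0.50, adjusted p = 0.00346). The same opposition held for Mat1a and Mat2a (at least 3159-fold higher, and -1.28), Pygl and Pygb (3.52, and at least 5.49-fold lower) and the transferrin receptors Tfr2 and Tfrc (3.01 and -2.72). In glycolysis most pairs did not part in this way, since Pklr, Pfkl and Eno3, each set as the first form of its pair, were not called. Pkm, the pyruvate kinase of dividing cells, fell by 4.22. Among the 7 is glycogen synthase, in which the lower call of Gys1 rests on signals not well above background at 1 month, gives no bound of at least 1-fold and went from -1.37 to 0.55 with normexp. The number of opposed pairs was 4 without B1 and 4 without B2.

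**Figure D3:**
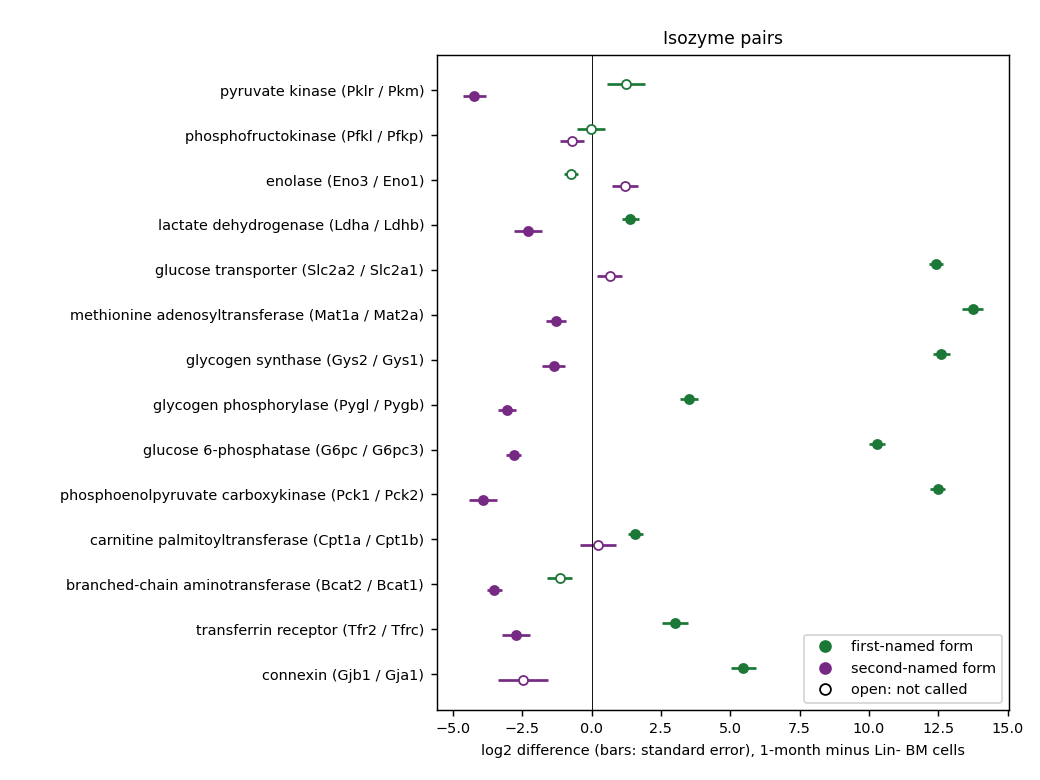
Log2 difference with its standard error (horizontal axis, 1 month minus Lin- BM cells) for pairs of isozymes, the first-named form in green and the second-named in purple, with open symbols for genes not called. In 7 of the 14 pairs the first-named form was called higher and the second-named lower, and pyruvate kinase, phosphofructokinase and enolase are among the exceptions.

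Fat oxidation was higher throughout, at smaller size. All 20 genes of fatty acid oxidation and ketogenesis were called higher, with a median of 3.23. Acaa1b, a thiolase of peroxisomes, was at 1.81 and 1.87 against 8.37 and 8.69 (difference 6.69, SE 0.27, adjusted p = 0.000173), and Cpt1a, the gate of mitochondrial entry, rose from 3.79 and 4.05 to 5.61 and 5.38. Ehhadh, a peroxisomal bifunctional enzyme, rose by 6.05. Of 16 peroxisome biogenesis genes, 13 were higher and 0 lower (median 1.65), led by Pex11a, which divides peroxisomes (3.82), Pex11g (3.66) and Pex16 (2.81). With any 1 array left out, 9 members were called higher.

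Mitochondrial lists had smaller medians than the liver lists above. For the tricarboxylic acid cycle the share of higher calls, 33.3%, was near the 28.8% of all genes. Of 21 genes of the tricarboxylic acid cycle, 7 were higher and 0 lower (median 0.78), 10 without L4 and 4 without B2. Suclg2, a succinyl-CoA ligase subunit, rose by 2.31, and Sdha and Sdhb of succinate dehydrogenase by 1.98 and 1.85. Of 39 NADH dehydrogenase subunits, 26 were higher and 1 lower (median 1.24). Ndufa6, an accessory subunit, was at 4.02 and 4.08 against 6.03 and 6.20 (adjusted p = 0.00333). That count fell to 10 without L3, 5 without B1 and 4 without B2. Of 75 mitochondrial ribosome genes, 7 were higher and 3 lower, both shares below those of all genes, and the split turned to 0 higher and 4 lower without L3 and to 16 and 0 without L4.

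Bile acid and detoxification genes were higher in nearly all members measured. All 17 genes of bile acid synthesis and transport were higher (median 9.34). Slco1b2, an uptake carrier of the sinusoidal membrane, was at -6.62 and -6.67 against 9.54 and 9.31, at least 15564-fold higher. Cyp7a1, the rate-limiting enzyme of bile acid synthesis, was at -6.07 and -6.56 against 3.22 and 3.50, at least 232-fold higher, and Baat, which conjugates bile acids, at least 2147-fold. Abcb11, the pump that exports bile salts, was well above background on 1 of the 2 Lin- arrays and rose from -3.66 and -5.63 to 8.26 and 8.22.

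Of 98 cytochromes P450 on the array, 79 were tested, and 70 were higher and 3 lower (median 9.61). Of the 79, 39 were well above background on no Lin- array and 2 on no 1-month array. Cyp2c50 was at least 13972-fold higher, Cyp2a5 at least 7187-fold and Cyp2e1, which oxidises ethanol and acetaminophen, at least 5634-fold, the last from -6.59 and -6.58 to 8.00 and 7.93. The lower ones were Cyp1b1, an enzyme of cells outside the liver (at least 4.08-fold), Cyp4f16 (-1.07) and Cyp11a1 of steroid-making cells, which turned to 0.25 with normexp. All 11 UDP-glucuronosyltransferases were higher (median 10.09), as were 18 of 20 glutathione S-transferases (median 5.93) and 12 of 13 sulfotransferases (median 6.65). Examples are Ugt2b35 (at least 5246-fold), Gsta1, which rose from -4.23 and -6.62 (1 array well above background) to 5.43 and 6.61, and Sult2a8, which rose by 8.34. No Lin- array was well above background for 8 of the 11 UDP-glucuronosyltransferases, 2 of the 20 glutathione S-transferases and 6 of the 13 sulfotransferases. Of 19 sulfotransferases on the array, 13 were tested, 1 of them well above background on no 1-month array. All 10 major urinary protein genes were higher (median 13.45), from Mup4 at 10.97, measured on all 4 arrays, to Mup1 at 16.41, whose probe stayed near background in marrow. These genes are nearly identical, so probes may read several of them, and the same holds in part for P450 subfamilies. Of 60 serpins on the array, 38 were tested, and 22 were higher and 5 lower. Serpina3k was at least 9760-fold higher and Serpini1 at least 13.8-fold lower. Of the 38, 10 were well above background on no Lin- array and 3 on no 1-month array.

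Membrane traffic and contact followed cell type. Of 273 solute carriers, 121 were higher and 68 lower. Slc47a1, which extrudes organic cations, was at least 2182-fold higher and Slc38a4, an amino acid carrier of hepatocytes, at least 1894-fold. Slc38a1 and Slc1a5, amino acid carriers of growing cells, were lower, Slc38a1 from 5.12 and 5.60 to -3.17 and -1.62 and Slc1a5 at least 168-fold. Slc14a1, the urea carrier of red cells, was at least 344-fold lower. Of 20 genes of junctions, polarity and keratins, 18 were higher and 0 lower (median 5.08). Gjb2, a gap junction protein, rose from -5.84 and -3.10 (1 array well above background) to 6.22 and 6.31, Cldn3 of tight junctions by 9.13, and Cldn2 was at least 80.7-fold higher.

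**Figure D4:**
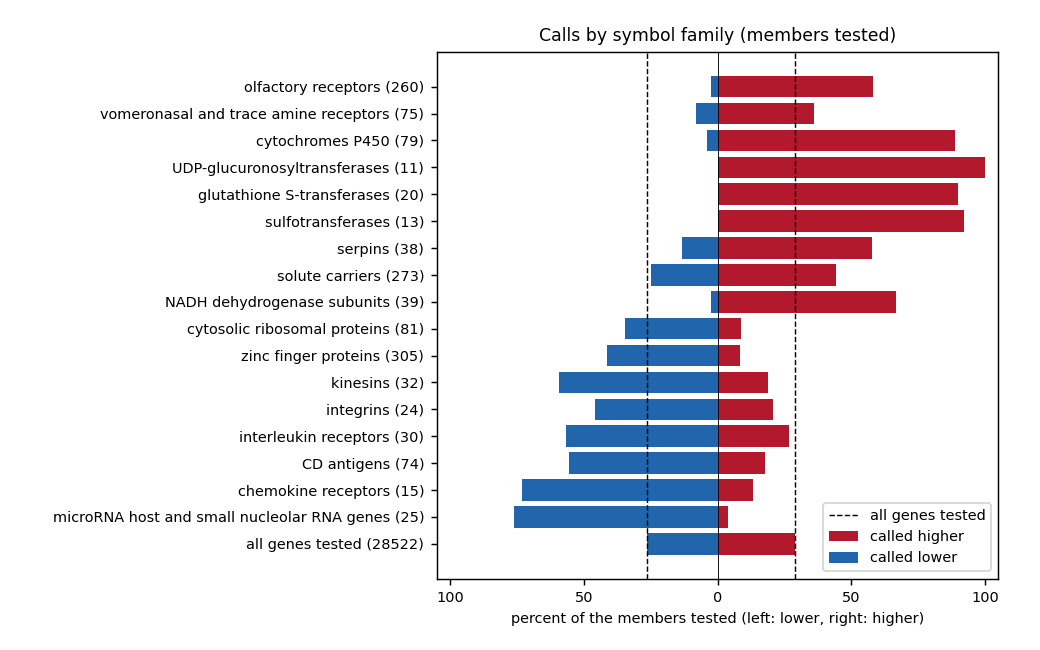
Percent of the members tested that were called higher (red, right) or lower (blue, left) at 1 month for families defined by gene symbol, with the number tested in brackets and dashed lines at the shares of all genes (28.8% and 26.5%). Detoxification families reach far to the right, chemokine receptors and small nucleolar RNA genes far to the left, and olfactory receptors also lie to the right.

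Transcription factors of the liver were higher almost as a set. Of 23 tested, 21 were higher and 0 lower (median 7.16). Foxa2, which opens liver enhancers, was at -6.70 and -6.68 in Lin- BM cells and 5.48 and 5.81 at 1 month, at least 1129-fold higher. Hnf4a was at -2.84 and -3.75 against 4.0 and 3.7 (difference 7.14, SE 0.40, adjusted p = 0.000375). Nr1h4, the bile acid receptor, was at least 848-fold higher and Ppara, which drives fat oxidation, at least 591-fold. Cebpa and Cebpb, which marrow also uses, rose from levels near the upper quartile, Cebpa from 0.50 and -0.03 to 3.31 and 2.74. Gata4 was at -3.33 and -3.47 against -2.92 and -2.94 and, like Esr1, was not called.

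Of 21 hormone and growth factor receptors of hepatocytes, 18 were higher and 1 lower (median 6.64). Asgr1, the asialoglycoprotein receptor, was at -2.38 and -2.94 against 7.99 and 7.74, the glucagon receptor Gcgr rose by 9.86, and the vasopressin receptor Avpr1a was at least 265-fold higher. Igf1r, a growth factor receptor that mature hepatocytes express weakly, was the exception, at 3.15 and 3.10 against -1.73 and -2.38 (difference -5.18, SE 0.33, adjusted p = 0.000522).

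Most genes of the blood program were lower. Of 25 blood cell transcription factors, 20 were lower and 1 higher (median -5.20). Myb, required for blood stem and precursor cells, was at 7.05 and 7.49 in Lin- BM cells and -5.51 and -5.71 at 1 month, where neither array was above background. It was at least 1770-fold lower (adjusted p = 6.29e-05). Gfi1b was at least 329-fold lower and Ikzf1, a lymphoid factor, at least 124-fold, while Lyl1 fell from 6.43 and 6.60 to -0.43 and -0.46 and Tal1 fell by 5.71. Cebpe, a factor of late granulocytes, went against the list at 3.78 and 2.98 against 4.59 and 4.51 (difference 1.17, SE 0.36, adjusted p = 0.0442). That call was lost in 9 of the 14 alternative settings, normexp and quantile normalization among them.

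Of 19 progenitor and leukocyte cytokine receptors, 17 were lower and 1 higher (median -3.50). Kit was at 5.74 and 5.92 against 1.12 and 1.80, a difference of -4.37, but well above background on both 1-month arrays (SE 0.34, adjusted p = 0.000897). Cxcr4, which holds precursors in marrow, was at least 85.9-fold lower, and Il7r of lymphoid precursors was called lower, from 5.03 and 2.92 to -5.44 and -5.67, where this probe was not well above background. Tek, which endothelium expresses too, rose from -3.54 and -3.99 to -1.75 and -1.11. Of 30 interleukin receptor genes, 17 were lower and 8 higher, the latter including Il17rc (6.07) and Il13ra1 (4.70). Of 15 chemokine receptors, 11 were lower and 2 higher, and of 24 integrins 11 were lower and 5 higher, with Itga4 at least 141-fold lower and Itgb5 higher by 3.53. Of 74 CD antigens, 41 were lower and 13 higher. Cd24a was at least 720-fold lower, and Cd302, a lectin of hepatocytes and macrophages, rose from -0.10 and 0.35 to 7.36 and 6.93.

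All but 2 of 25 genes of leukocyte signalling and cytoskeleton were lower (median -5.36, 0 higher). Coro1a, an actin regulator of leukocytes, was at 6.73 and 6.15 against -2.30 and -0.95, and Rac2, a GTPase of blood cells, fell by 7.10. Of 24 granule proteins of myeloid precursors, 20 were lower and 1 higher (median -6.10). Mpo, myeloperoxidase, was the largest fall among RefSeq genes measured on all 4 arrays, at 8.62 and 8.52 against -1.83 and -1.70 (difference -10.34, SE 0.26, adjusted p = 6.41e-05), and Mcpt8, a protease of basophils, was at least 202-fold lower. S100a8 was uneven in Lin- BM cells, at 6.27 on L3 and 2.64 on L4, and at least 252-fold lower at 1 month. Gstm1, a glutathione transferase that hepatocytes make in quantity, rose by 5.16. The 22 genes of toll-like receptors and the inflammasome split, 5 higher and 6 lower (5 higher and 2 lower with normexp): Tlr9 rose by 3.46 and Ly96 by 2.35, while Pycard fell from 4.62 and 4.85 to -0.13 and 0.30 and Casp1 by 3.66.

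Cell division was lower with few exceptions. Of 36 DNA replication genes, 34 were lower and 0 higher (median -3.49), of 37 mitosis genes 35 and 0 (median -5.49), and of 36 repair and checkpoint genes 31 and 0 (median -2.86). Mcm5, a helicase subunit of the replication origin, was at 4.49 and 5.58 against -3.17 and -1.67, of which 1 was well above background (difference -7.45, SE 0.64, adjusted p = 0.00122), and Cdc6, which loads that helicase, was at least 28.3-fold lower. Ccnb1, the cyclin of mitotic entry, was at 2.84 and 4.49 against -4.69 and -5.69, at least 145-fold lower. In both lists the 2 Lin- arrays differed, L4 being higher for all the genes named here, and the summed signal of the mitosis list was 340 on L3 and 1077 on L4 against 13.8 and 18.2. Birc5, which acts in chromosome segregation, fell by 8.02 and Cenpf, a centromere protein, was at least 101-fold lower. In repair, Exo1, an exonuclease, was at least 96.2-fold lower and Chek1, a checkpoint kinase, at least 26.8-fold.

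Upstream sequences of a pair of mitosis genes are shown because they hold the CCAAT box and, in Cdc20, the cell cycle homology element TTTGAA, which occur in promoters of genes expressed late in the cycle. Both lie on the minus strand, Ccnb1 at chr13:100786487-100786636 and Cdc20 at chr4:118437344-118437493 (RefSeq, GRCm38.p6, 150 bases before the gene, 5′ to 3′ on its strand). Capitals mark CCAAT and TTTGAA on either strand.
Ccnb1: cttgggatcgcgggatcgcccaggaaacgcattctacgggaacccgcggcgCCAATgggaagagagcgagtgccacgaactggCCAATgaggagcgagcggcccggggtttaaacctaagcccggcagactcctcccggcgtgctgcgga
Cdc20: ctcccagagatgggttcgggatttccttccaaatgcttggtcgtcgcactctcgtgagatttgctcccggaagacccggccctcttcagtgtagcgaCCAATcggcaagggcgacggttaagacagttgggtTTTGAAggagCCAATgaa
Over 250 bases on both strands, CCAAT was found in 24 of 31 mitosis genes with a promoter in the table (77.4%) and 20 of 29 replication genes (69.0%), against 37.5% of all genes. TTTGAA was in 14 of the 31 mitosis genes (45.2%) against 18.3%, and GCGGGAA, a core of the E2F site, in 6 of the 29 replication genes (20.7%) against 4.4%. Among raised lists, CCAAT was in 56.5% of amino acid breakdown, 52.9% of plasma carrier, 38.5% of lipoprotein, 16.7% of coagulation and 0.0% of major urinary protein genes. TTTGAA was in 57.1% of major urinary protein, 30.8% of lipoprotein, 23.5% of plasma carrier, 8.7% of amino acid breakdown and 5.6% of coagulation genes. In replication genes its share was 17.2%. The printed genes were chosen after their upstream sequence had been seen, and base composition of the promoters was not matched.

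Most genes of nucleotide supply were lower, and both serine hydroxymethyltransferases were higher. Of 30 nucleotide synthesis genes, 18 were lower and 2 higher (median -1.84). Rrm2, the regulated subunit of ribonucleotide reductase, was at 2.59 and 4.07 against -1.46 and -2.94 (difference -5.54, SE 0.71), and Mthfd1l, a mitochondrial folate enzyme, fell by 6.90. The higher ones were Shmt1, from -1.18 and -0.64 to 3.30 and 3.53 (adjusted p = 0.000754), and Shmt2 (1.69), which pass one-carbon units from serine to folate. Of 27 replication-dependent histone genes, 21 were lower and 2 higher, H2ac11 at least 48.9-fold lower and H2bc4 higher by 2.53, in a family whose members have similar sequences. Of 32 kinesins, 19 were lower and 6 higher: Kif15 and Kif23, motors of the spindle, were at least 18.4-fold and 25.3-fold lower, whereas Kif1b and Kif1c, which carry organelles, rose by 3.85 and 3.73.

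Production of ribosomes and processing of RNA were lower by smaller amounts. Of 41 ribosome biogenesis genes, 33 were lower and 0 higher (median -1.77). Dkc1, which modifies ribosomal RNA, was at 0.32 and 1.25 against -1.99 and -1.92 (difference -2.74, SE 0.39, adjusted p = 0.00482). Of 52 spliceosome genes, 33 were lower and 0 higher (median -1.27), with Hnrnpa1 falling from 5.97 and 6.04 to 3.19 and 2.88. Both counts moved with single arrays: without L4 they were 23 and 19, and without B1 or B2 they were 15 and 15 for ribosome biogenesis and 13 and 10 for the spliceosome. Of 25 microRNA host and small nucleolar RNA genes, 19 were lower and 1 higher (median -2.30). Snord35a was at least 7.91-fold lower and Snora68 fell by 4.15. The labelling primed on poly(A), so these probes read polyadenylated host transcripts or other products that carry a poly(A) tail. Of 81 cytosolic ribosomal proteins, 28 were lower and 7 higher, the lower share close to that of all RefSeq genes. Without L4, B1 and B2 the lower count was 18, 13 and 14.

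Genes of protein synthesis and turnover gave fewer calls. Of 21 aminoacyl-tRNA synthetases, 2 were higher and 3 lower, and Aars rose from 3.03 and 4.07 to 6.31 and 6.21. Of 40 proteasome genes, 15 were higher (37.5%, against 28.8% of all genes) and 2 lower (median 0.83). The lower ones were Psmb8, at 6.05 and 5.75 against 3.50 and 3.15 (difference -2.57, SE 0.29, adjusted p = 0.00251), and Psmb9 (-1.85), catalytic subunits of the immunoproteasome. Psmb5 and Psmb6, the constitutive subunits they replace, were higher, Psmb5 from 4.51 and 5.28 to 6.44 and 6.54. Nearly all higher calls were lost without L3, B1 or B2 but not without L4, while the lower calls stayed. Such fits leave 1 array in a group, which makes small differences harder to call. Of 34 lysosomal genes, 12 were higher (35.3%) and 3 lower, with Ctsl rising by 4.55 and Ctsh by 3.66, and Glb1 falling by 2.48. Of 30 autophagy genes, 9 were higher (30.0%, near the share of all genes) and 1 lower. Sqstm1, a cargo receptor, rose from 6.10 and 5.71 to 8.77 and 8.68, and Gabarapl1 by 2.93. Without B1, 6 lysosomal and 6 autophagy genes were higher, and without B2 5 autophagy genes.

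Of 16 genes of DNA methylation and hydroxymethylation, 12 were lower and 1 higher (median -1.54). Uhrf1, which brings the maintenance methyltransferase to new DNA, was at 4.75 and 5.68 against -4.23 and -3.29, of which 1 was well above background (difference -8.97, SE 0.49, adjusted p = 0.000359), and Dnmt1, that methyltransferase, fell from 3.23 and 4.15 to -0.91 and -0.64. Dnmt3b fell by 3.31. Tet1, which oxidises methylcytosine, was at -1.08 and -1.13 against 0.25 and 0.14 (difference 1.3). Of 22 Polycomb genes and demethylases of lysine 27 of histone H3 (H3K27), 12 were lower and 1 higher (median -1.13). Ezh2, the H3K27 methyltransferase, fell from 3.60 and 4.67 to 0.19 and 0.29, and its partners Suz12 and Eed by 1.83 and 1.12. The demethylase Kdm6a fell by 1.43, and Kdm6b was at 1.45 and 1.21 against 0.77 and -0.47 and was not called (adjusted p = 0.0888). Ring1 was higher by 2.27 on 1 of its 2 probes. Without B2, 7 members of the methylation list and 7 of the Polycomb list were lower, and without L3, 7 of the Polycomb list. Of 305 zinc finger proteins, 126 were lower and 26 higher (77 lower without B1).

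Position genes split. Of 41 Hox genes, 15 passed the filter, with 6 lower and 4 higher (2 lower and 6 higher with normexp). Hoxa7, Hoxa9 and Hoxa10, expressed in blood precursors, were at least 98.3-fold, 16.9-fold and 4.6-fold lower, and Hoxa9 was at 0.53 and 0.58 against -4.85 and -5.06. Hoxa4 and Hoxa5, at least 1.34-fold and 2.2-fold lower, turned to log2 differences of 0.43 and 0.16 with normexp. Among 15 imprinted genes that passed of 20, 6 were higher and 2 lower (3 higher without L3). Mest, seen on 1 of the 2 Lin- arrays, rose by 4.58 and Ndn by 1.64, Grb10 fell by 2.57, and Meg3 was at -0.45 on B1 and 3.41 on B2 against -3.31 and -3.74. H19 was at -2.78 and -2.85 against -2.11 and -1.79 (adjusted p = 0.047).

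The labels were checked against markers of the cells named and of other cells that the sorts could hold. Of 15 hepatocyte markers, 14 had a probe and all 14 passed the filter and were higher (median 11.64), with summed signals of 3176 and 3087 at 1 month (in units of the upper quartile) against 0.935 and 0.75. All but 1 of 15 Lin- progenitor markers were lower, with sums of 832 and 772 against 4.95 and 8.13, and Procr was the one not called. Of the depletion markers, 5 of 6 were lower, Itgam turning to 0.12 with normexp. Their sums in Lin- BM cells, 91.3 and 39.4, were above those at 1 month, 1.13 and 1.68.

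Markers of the cells that line the liver sinusoids rose with the hepatocyte genes. Of 15 markers of sinusoidal endothelium, 11 were higher and 2 lower (median 4.09). Clec4g, a lectin of these cells, was at -3.17 and -2.73 against 4.74 and 4.90 (difference 7.77, SE 0.29, adjusted p = 0.00014), and Gpr182 was at least 293-fold higher. The lower ones were Vwf and Pecam1, each seen on 1 of the 2 1-month arrays, and the sums were 16.2 and 20.6 against 98.6 and 132. Of 14 Kupffer cell markers, 7 were higher and 0 lower (median 2.70), with sums of 6.99 and 27.6 against 70 and 109. Slc40a1 gave the largest signal of this list in both groups, and its call (difference 2.96) was lost in 7 of the 14 alternative settings. The 1-month arrays differed here: Clec4f was at 0.45 on B1 and 2.94 on B2, Vsig4 at -2.49 and -0.07, and Cd5l, not called, at 2.20 and 4.68. Without B2, 3 Kupffer cell markers were higher. Defining genes such as Adgre1 and Csf1r, which marrow monocytes share, were not called. The part of these cells in the 1-month results was not tested.

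Mesenchymal and duct cell markers gave no common direction. Of 14 stellate and mesenchymal markers, 4 were higher and 3 lower (median 0.43). Rgs5 and Lrat, of pericytes and stellate cells, were at least 82.7-fold and 12.2-fold higher, whereas Col1a1 was at least 361-fold lower. Col1a1 was at 2.80 on L3 and 7.15 on L4, Col1a2 at 3.23 and 7.38, and the summed signal of the list was 59.8 on L3 and 373 on L4 against 84.3 and 91.5. Of 10 bile duct markers, 4 passed the filter, and Krt7, Krt19 and Epcam, which define duct cells, were not among them. Of the 4, 3 were higher, with Muc1 at 1.97, and Spp1, which other cells also make, was lower (-6.71), with a median of 1.77. Sums over the 4 were 19.5 and 24.5 against 1.01 and 1.18, most of it in Lin- BM cells from Spp1.

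Markers of mature blood cells were lower. Of 17 lymphocyte markers, 14 were lower and 0 higher, with sums of 296 and 139 against 2.13 and 2.95. Of 14 neutrophil markers, 11 were lower, with sums of 644 and 111 against 3.29 and 2.13, and 6 were lower without B1, as without B2. Of 16 megakaryocyte markers 12 were lower (93.9 and 214 against 35.1 and 32.9), and of 14 erythroid markers 13 were lower and 1 higher (292 and 540 against 33.5 and 51.3, with 8 lower without B1). Hba-a1, a hemoglobin chain, fell from 7.56 and 7.57 to 1.53 and 0.31. Alas2, the heme synthesis enzyme of red cells, was the erythroid marker that rose, from 3.28 and 3.31 to 4.66 and 5.40 (adjusted p = 0.0127). That call was lost in 4 of the 14 alternative settings. At 1 month the largest signal was that of Alas2 in the erythroid sum and that of F2r in the megakaryocyte sum. L3 held more neutrophil and lymphocyte signal and L4 more erythroid, megakaryocyte and collagen signal, and the part of these in the falls was not tested.

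**Figure D5:**
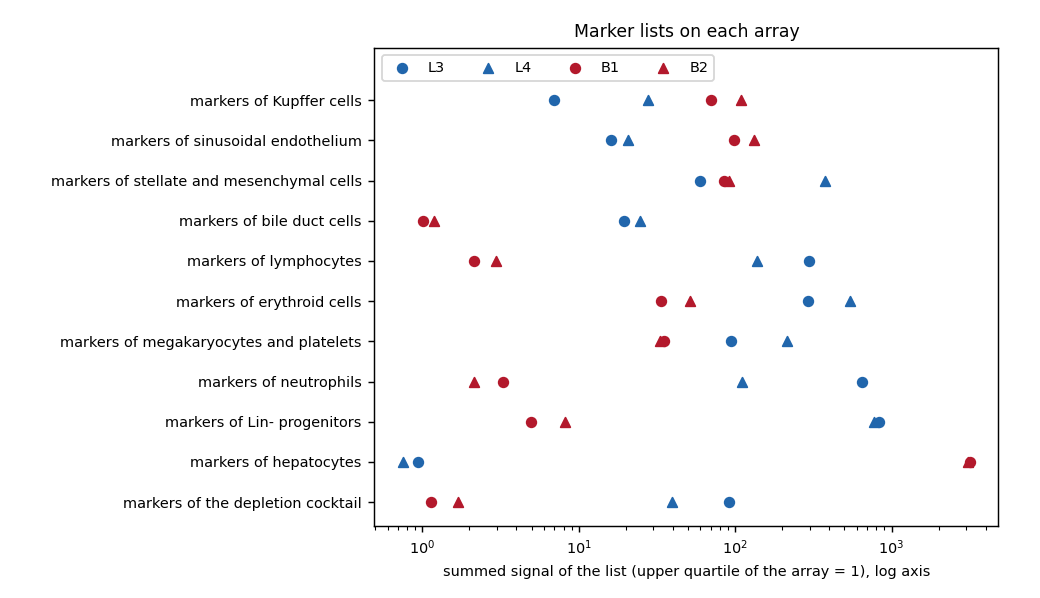
Summed signal of each marker list on each array (horizontal log axis, the upper quartile of the array = 1), with Lin- BM cells in blue and 1-month hepatocytes in red. Hepatocyte markers are at 3176 and 3087 at 1 month and below 1 in Lin- BM cells, Kupffer cell and endothelial markers are also higher at 1 month, and lists of blood cells are lower. Slc40a1 is the largest member of the Kupffer cell sum in both groups.

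Among RefSeq genes measured on all 4 arrays, the 10 largest rises ran from 11.77 to 14.31, with adjusted p between 6.06e-05 and 0.000222. They were Akr1c6, a hydroxysteroid dehydrogenase, Serpina1d of the alpha-1-antitrypsin family, Ahsg (fetuin), Cyp3a41a, Gsta3, Azgp1, Proc (protein C), Pck1, Hpx, which binds heme, and Cyp2d10. Serpina1d was at -3.17 and -3.25 against 10.03 and 9.91, and Hpx, the most uneven at 1 month, at -3.74 and -3.63 against 9.06 and 7.86. The 10 largest falls ran from -7.73 to -10.34. They were Mpo, Mki67, Dusp2, Mcm6, Ctsg, Mns1, Coro1a, Birc5, Slc38a1 and Prss34, of which Mpo, Ctsg and Prss34 are myeloid granule proteins and Mki67, Mcm6 and Birc5 act in the cell cycle. Prss34, a protease of basophils and mast cells, was at 5.55 and 5.05 against -2.33 and -2.52.

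A lower bound of at least 1-fold was available for 1108 higher and 2783 lower genes. The 10 largest of these on the higher side, from 15870-fold for Ces1c to 25453-fold for Fgg, also held Fgb, Ambp, Alb, Mug1, a protease inhibitor of plasma, Rgn, a lactonase of vitamin C synthesis, Apoh, Igfbp1, which binds insulin-like growth factors, and the carboxylesterase Ces3b. Igfbp1 was at -6.69 and -6.56 against 9.67 and 9.37. The 10 largest on the lower side, from 398-fold to 1770-fold, were Myb, Spn (CD43 of leukocytes), Phgdh, Cd24a, Gm7669, Gm5385, Acss1, Emb, Rgcc and Gm13337. Acss1, an acetyl-CoA synthetase of mitochondria, was at 5.26 and 6.24 against -5.09 and -4.10. Bounds differ between the sides because the limit of detection differs, so they do not rank rises against falls.

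Receptors of smell and pheromones, silent in most tissues, gave many calls. Of 1068 olfactory receptor genes on the array, 260 passed the filter, and of these 151 were higher and 6 lower (median 1.18). Olfr114 stood out, at -4.06 and -3.55 against 4.46 and 4.45 (difference 8.25, SE 0.30), as did Olfr812, which rose by 5.74, and Olfr1384, at least 115-fold higher. Of the 6 lower, Olfr1065, Olfr339, Olfr56 and Olfr385 turned to 0.19, 0.49, 0.55 and 0.54 with normexp. Of 329 vomeronasal and trace amine receptor genes, 75 passed, with 27 higher and 6 lower, and Vmn2r30 rose from -3.04 and -2.74 to 2.59 and 2.94. Most of these probes lie near the limit of detection, which was about 1 log2 unit higher relative to the upper quartile at 1 month, and the part of this in the calls was not tested. Without B2, 82 olfactory receptors were higher.

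Probes for noncoding transcripts of the NONCODE collection showed a like tilt. Of 9409 tested, 3028 (32.2%) were higher and 1788 (19%) lower, with a median of 0.40, against 27.2% and 30.2% with a median of -0.11 for the 19113 other genes. Both Lin- arrays were well above background for 8902 of the NONCODE transcripts and both 1-month arrays for 6953. Among all genes measured on all 4 arrays (21086), 6562 were higher and 4403 lower. Of 3223 called genes with several probes, 2947 (91.4%) had all probes moving the same way.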

How the data were processed

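Total RNA of pooled cells had been labelled with Cy3 by oligo dT priming (Agilent Quick-Amp) and hybridised to 1-colour arrays. The authors deposited the Feature Extraction output (version 11.5.1.1), whose background-subtracted signals are intensities, and a table of log2 values that the authors processed with GeneSpring GX. Intensities of 61307 probes were taken to log2 and the 75th percentile of each array was subtracted. Control and outlier spots were left out, and 0 spots were saturated. A probe entered the fit where its spots exceeded background in every replicate of either group, and the brightest probe stood for a gene. Names came from RefSeq (GRCm38.p6) for 28136 probes by accession, 4982 by symbol and 1406 by synonym, and 26783 kept the file's name. limma 3.58.1 (R 4.3.3, lmFit and eBayes) was fitted to all 28522 genes of the 4 arrays with Benjamini-Hochberg adjustment. The fit was tested on simulated data with known changes. With a small set of genes changed, none was recovered at the real spread between arrays. The criterion was set after that result. It required recovery only at a lowered spread, besides the right direction and few false calls. Tables were built with pandas 2.3.3 and numpy 2.4.6 under Python 3.11.15, and plots with matplotlib 3.10.9.

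Members, lists and alternatives were chosen with earlier results of these data known. Genes were named by rule: the 10 largest changes each way among RefSeq genes measured on all 4 arrays, the 10 largest bounds each way, up to 4 of the largest called genes in each direction of a list, members going against a list, isozyme pairs, genes of the genome clusters, Xist and the Y chromosome, and members seen on both arrays of a group that should lack them. Of these, examples are given. Chosen after their values were seen were Adgre1, Apob, Atf3, Casp1, Cd5l, Cdc20, Cebpa, Cebpb, Cenpf, Csf1r, Cyp7a1, Dnmt3b, Eed, Egr1, Ehhadh, Epcam, Esr1, F2, Fos, Gata4, H19, Hnf4a, Hp, Hpd, Hspa5, Kdm6a, Kdm6b, Krt19, Krt7, Lyl1, Mup4, Nr1h4, Procr, Psmb6, Suz12, Tal1 and Trf. Keratin, claudin, RNA polymerase, initiation factor, potassium channel and 1 further family were left out after their calls were seen. Some genes, and the isozyme pairs that hold them, are not reported here. The background correction, normalization, percentile, filter, probe choice, value table, test and arrays were varied in turn. The number of arrays limits the precision, and 0 columns of other samples were found in the tables used.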

Additional observations from a re-analysis of the deposited data

How the results depend on the processing

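The settings were varied 1 at a time, in 14 alternatives. Genes called higher numbered 19018 without a filter on dim probes, 2828 by the methods' t-test after adjustment and 4955 to 6192 with 1 array left out, the lowest without B2. Genes called lower numbered 4831 with probes measured on all 4 arrays, 1738 by the adjusted t-test and 4942 to 6319 with 1 array left out, being 5003 without B1 and 4942 without B2. The filter is recomputed there, so the genes tested differ. Of 67 lists and families, 47 had over 50% of members called one way, against 17 by the adjusted t-test and 36 to 41 with 1 array left out. Opposed isozyme pairs numbered 7, and 4 with probes measured on all 4 arrays, 3 by the t-test, 1 after its adjustment and 4 to 6 with 1 array left out. Bounds of at least 1-fold numbered 3891, 2363 with normexp and 4173 to 5370 with 1 array left out. No paired analysis was possible because the arrays of the groups share no replicate number. Lists whose leading direction turned were, as higher and lower counts: toll-like receptors 5 and 2 (normexp), 7 and 6 (no filter) and 4 and 2 (measured on all 4); nucleotide synthesis 1 and 0, interleukin receptors 4 and 2 and kinesins 3 and 0 (adjusted t-test); tRNA synthetases 3 and 2 (without L4); mitochondrial ribosome 4 and 6 (normexp) and 0 and 4 (without L3); proteasome 1 and 2 (without L3) and 0 and 2 (without B1, and without B2); Y chromosome and Xist 3 and 1 (no filter); stellate markers 2 and 3 (measured on all 4) and 2 and 4 (without L3); stress genes 4 and 2 (without B2); housekeeping genes, 8 and 4 in the main comparison, 3 and 7 (quantile), 3 and 4 (without L3), 2 and 3 (without B1) and 1 and 3 (without B2); integrins 5 and 4 (measured on all 4); Hox genes 6 and 2 (normexp), 17 and 6 (no filter) and 2 and 0 (measured on all 4). With normexp these differences turned: Cyp11a1 0.25, Gys1 0.55, Hoxa4 0.43, Hoxa5 0.16, Itgam 0.12, Olfr1065 0.19, Olfr339 0.49, Olfr385 0.54, Olfr56 0.55, Vmn1r100 0.56, Vmn1r104 0.48, Vmn1r125 0.47, Vmn2r41 0.48, and of genes not called Bcat2 0.02, Cma1 0.17 and Pdgfra 0.40. Over the fits with 1 array left out, higher calls ran from 0 to 16 for the mitochondrial ribosome and from 0 to 15 for the proteasome, and lower calls from 1 to 9 for stress genes. The other turns were of uncalled genes: Pfkl 0.00 with the percentile over detected probes, Cpt1b -0.46 with the mean of probes, Uty -0.01 with quantile normalization, and, over the fits with 1 array left out, Bcat2 -1.36 to 0.55, Cpt1b -0.62 to 1.11, Hoxa3 -0.39 to 0.87, Pdgfra -1.38 to 1.19, Pfkl -0.61 to 0.54 and Uty -0.11 to 0.45. Of 392 called genes that the naming rule took, 379 kept their direction in every alternative that tested them, and 191 were called in every alternative that tested them. Not all were tested in all 14: Alb, for example, was tested in 13. The cause of these turns was not tested. The median of all genes moved to 0.36 with normexp, 0.75 without a filter and 0.32 with probes measured on all 4 arrays. Dim signals at 1 month, close to background, limit the comparison of weakly expressed genes.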
